A study of Mus musculus with 10 samples.

Results

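The nuclear-encoded respiratory chain and ATP synthase genes were taken by symbol from the deposited log2 table: the Ndufa, Ndufb, Ndufc, Ndufs, Ndufv, Uqcr, Cox4i, Cox5, Cox6, Cox7, Cox8 and Atp5 genes together with Sdha, Sdhb, Sdhc, Sdhd, Cyc1 and Cycs, leaving out the Ndufaf assembly factors and pseudogenes. This gave 87 symbols and, because the symbols Ndufb4, Ndufb4b and Ndufb4c share 1 gene ID in that log2 table, 85 genes of 54307 in the count table. Of these, 39 belong by name to complex I, 4 to complex II, 9 to complex III, 15 to complex IV and 17 to complex V, and Cycs encodes cytochrome c. Ndufb1 is kept under its deposited symbol, although GENCODE M21 names that gene Ndufb1-ps and classes it as a long noncoding RNA. A total of 82 passed the filter on low counts. Cox4i2, Cox6a2 and Ndufa4l2 did not, with 16, 58 and 49 counts over all libraries.

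The RNA came from mouse bone marrow cells grown into macrophages in medium with 20% L-929 fibroblast conditioned medium and harvested at day 7. The KI group holds 5 libraries from mice with the genotype hWDFY3KI/KI, which the series title calls WDFY3 overexpression, and the control group holds 5 libraries from wild-type controls. All mice were labelled male and 6 to 8 weeks old. The promoter, the locus and the origin of the hWDFY3 allele, the strain, and whether controls were littermates are not given in the labels. WDFY3 (ALFY) is a large adaptor protein of selective autophagy. The comparison asks whether the mRNAs of the respiratory machinery differ between KI and control macrophages.

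The respiratory chain moves electrons from NADH (complex I) and succinate (complex II) through ubiquinone, complex III and cytochrome c to oxygen at complex IV. Complexes I, III and IV pump protons across the inner mitochondrial membrane, and ATP synthase (complex V) uses that gradient to make ATP. Most subunits are made from nuclear genes and a small set from the mitochondrial genome, so the complexes need mRNAs from both. In macrophages, the balance between respiration and glycolysis is known to shift with activation state, and succinate oxidation and electron flow at complex I are known sources of signalling oxidants.

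NRF1 and ETS-family factors are known regulators of many of these genes, and their sites were counted in the promoters. RefSeq promoters (GRCm38.p6) were matched for 69 of the 85 genes, and the 250 bases before each start were searched on both strands for GCGCA and GCGC with any 1 base between them (NRF1), CCGGAAGT (ETS) and AAGATGGC (YY1). The NRF1 letters stood in 13 of the 69 promoters (18.8%), against 4.23% of all 27025 genes with a promoter there. They stood in 9.75% of the 9364 tested genes that matched a promoter by symbol. The shares of tested genes given next are also of these 9364. The ETS letters stood in 3 (4.35%, against 3.23% of all and 7.20% of tested genes) and the YY1 letters in 1 (1.45%, against 1.83% and 2.65%). Any of the 3 motifs stood in 16 of the 69 promoters (23.2%), against 18.3% of tested genes, so most members held none. The following stretches, with the motif in capitals, lie outside annotated exons. They show the NRF1 letters 141 bases before the start of Atp5h (chr11:115420026-115420085, minus strand), 117 before Cox6a1 (chr5:115349041-115349100, minus strand), 191 before Ndufb4 (chr16:37654525-37654584, minus strand) and 98 before Ndufs5 (chr4:123718250-123718309, minus strand), and the ETS letters 66 before Uqcr11 (chr10:80406855-80406912, minus strand).
Atp5h: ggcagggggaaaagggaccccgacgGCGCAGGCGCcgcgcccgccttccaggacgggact
Cox6a1: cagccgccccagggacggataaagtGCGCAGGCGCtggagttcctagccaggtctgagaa
Ndufb4: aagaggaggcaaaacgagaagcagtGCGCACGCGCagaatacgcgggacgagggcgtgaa
Ndufs5: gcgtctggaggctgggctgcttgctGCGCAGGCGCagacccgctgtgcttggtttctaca
Uqcr11: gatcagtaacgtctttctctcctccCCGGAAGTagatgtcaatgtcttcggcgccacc
The 13 genes with the NRF1 letters had a median log2 fold change (KI over control) of -0.045, and the 56 matched genes without them had a median of -0.076, so carriers and non-carriers lay close together.

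The libraries held 15.2 to 22.9 M estimated counts in KI and 14.6 to 36.4 M in control. CPM below means counts per M of the TMM-adjusted library total, and a value written with ± is a mean and SD over the 5 libraries of a group unless SE is named. All 9 macrophage markers passed the filter on low counts, and they summed to 30379 to 37407 CPM in KI libraries and 24326 to 35230 CPM in control libraries. Most of that sum was Lyz2 (lysozyme), with 27539 CPM in KI and 23061 CPM in control, while 7 of the 9 markers had a negative log2 fold change (median -0.045). Adgre1 (F4/80) was the marker with the smallest p, and its groups did not overlap, with 824 ± 17.0 CPM in KI and 953 ± 75.8 CPM in control (log2 fold change -0.21 ± 0.059 SE, adjusted p = 0.548, edgeR). Erythroid markers summed to at most 0.975 CPM in KI and 1.19 CPM in control, and muscle markers to at most 0.154 CPM in KI and 0.441 CPM in control. Neutrophil markers summed to 51.1 to 219 CPM in KI and 77.9 to 289.9 CPM in control. Most of that sum was Mmp8, with 103 ± 58.3 CPM in KI and 151 ± 77.3 CPM in control. All 6 tested neutrophil markers had a negative log2 fold change (median -1.79), and none was called. Stromal markers were uneven and summed to 94.9 CPM in KI 4, and to 157 CPM in control 1 and 159.6 CPM in control 4, against 2.25 to 22.3 CPM in the other 7 libraries. Wdfy3 itself averaged 119.7 CPM in KI and 109.8 CPM in control (log2 fold change 0.13 ± 0.066 SE, adjusted p = 0.811, edgeR quasi-likelihood test with Benjamini-Hochberg adjustment). The files do not say whether human WDFY3 reads could be counted there. In bulk RNA, fewer cells of a type and less RNA per cell cannot be told apart. The p-values measure the spread between the 5 libraries of each group.

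No nuclear respiratory gene passed the test between KI and control macrophages. At an adjusted p under 0.05, edgeR called 0 of the 82, while it called 10 of 12411 tested genes (0.0806%). The lowest adjusted p among the 82 was 0.683. DESeq2, which tests all 85, also called 0, against 45 calls among 19828 genes (0.227%). It gave 8 of the 85 an unadjusted p under 0.05, and 902 genes in all reached that level in DESeq2. At an unadjusted p under 0.05, edgeR gave 6 of the 82, namely Ndufa4, Cycs, Cox5b, Ndufa3, Sdhb and Ndufv2, where 6.21% of all tested genes reached that level. All 6 had lower means in KI, and 2.92% of all tested genes reached that level with a lower mean in KI. The KI and control libraries overlapped for each of the 82, while they did not overlap for 1.32% of all tested genes.

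The fold changes were small and lay mostly on one side. The log2 fold change was negative for 66 of the 82 genes (80.5%) with a median of -0.061, against 51.7% of all tested genes with a median of -0.0046. For 80 of the 82, the interval of 2 SE on each side stayed within a log2 fold change of 0.5 either way. The exceptions, Cox6b2 and Cox7a1, averaged under 1 CPM in both groups. The same held for 9508 of all 12411 tested genes, and for 7979 of the 8486 other genes in the CPM span of those 80. The counts were 28 of 38 negative in complex I (median -0.066), 4 of 4 in complex II (-0.028), 7 of 9 in complex III (-0.048), 11 of 13 in complex IV (-0.12) and 15 of 17 in complex V (-0.052). These genes vary together from library to library, so their number does not stand for independent evidence.

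**Figure D1:**
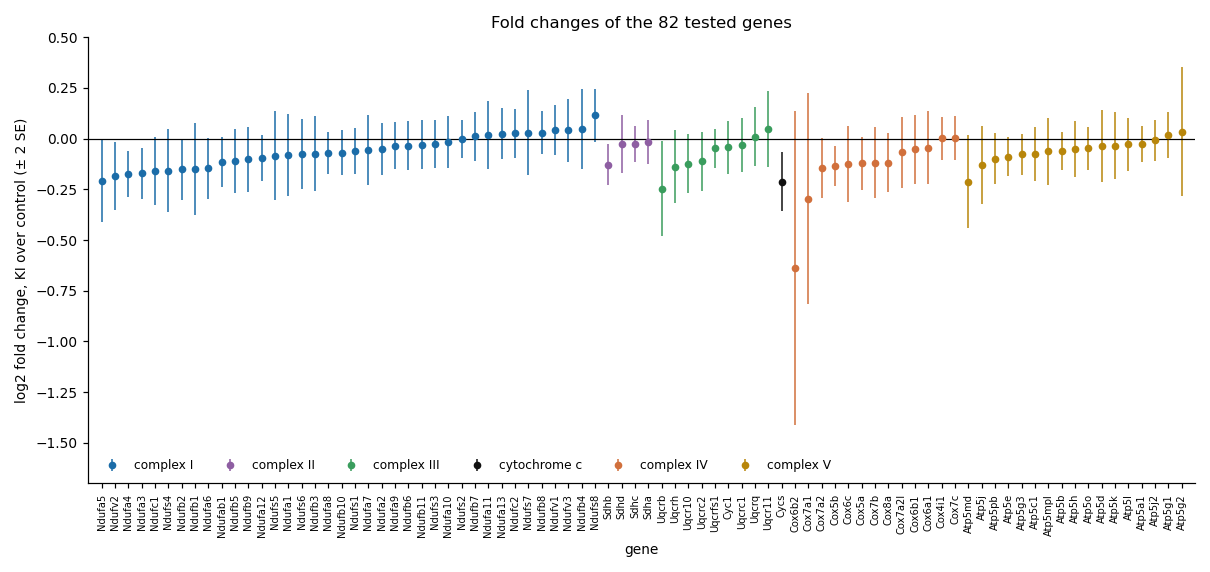
Fitted log2 fold change (KI over control) of each of the 82 tested genes with bars of 2 SE on each side, coloured by complex and ordered by fold change in each complex. Most points lie just below 0, and 66 are negative, with the low-count genes Cox6b2 and Cox7a1 carrying the longest bars.

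Summed over the 82 genes, KI libraries 1 to 5 held 5857, 5968, 6006, 6189 and 5793 CPM, and control libraries 1 to 5 held 6579, 6339, 6114, 6363 and 5776 CPM. The group means were 5963 ± 152 CPM in KI and 6234 ± 304 CPM in control (SD, n = 5 each). Control 5 lay below all KI libraries and control 1 above all others, so the groups overlapped. Without TMM scaling, the share of all counts was 0.578% to 0.603% in KI and 0.608% to 0.653% in control and did not overlap; the TMM factors ran from 0.956 to 1.01 in KI and from 0.965 to 1.05 in control. The overlap of the groups thus depends on that scaling.

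A few control libraries set the upper end. Control 1 was the highest of the 10 libraries for 35 of the 82 genes, control 4 for 20, control 3 for 13 and control 2 for 8. The KI libraries together were highest for 5 genes. The lowest value was spread more widely, in control 5 for 18 genes, KI 5 for 15, control 3 for 14 and KI 1 for 13. Control 1 and control 4 also held the most stromal marker RNA; without them and KI 4, the count of negative log2 fold changes was 57 of 82 (median -0.035) and 25 genes were positive, against 16 with all libraries. Control 1, control 4 and KI 4 also held the most neutrophil marker RNA, at 289.9, 257 and 219 CPM, so leaving them out removes both. Whether stromal cells or neutrophils contributed to the higher values was not tested.

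**Figure D2:**
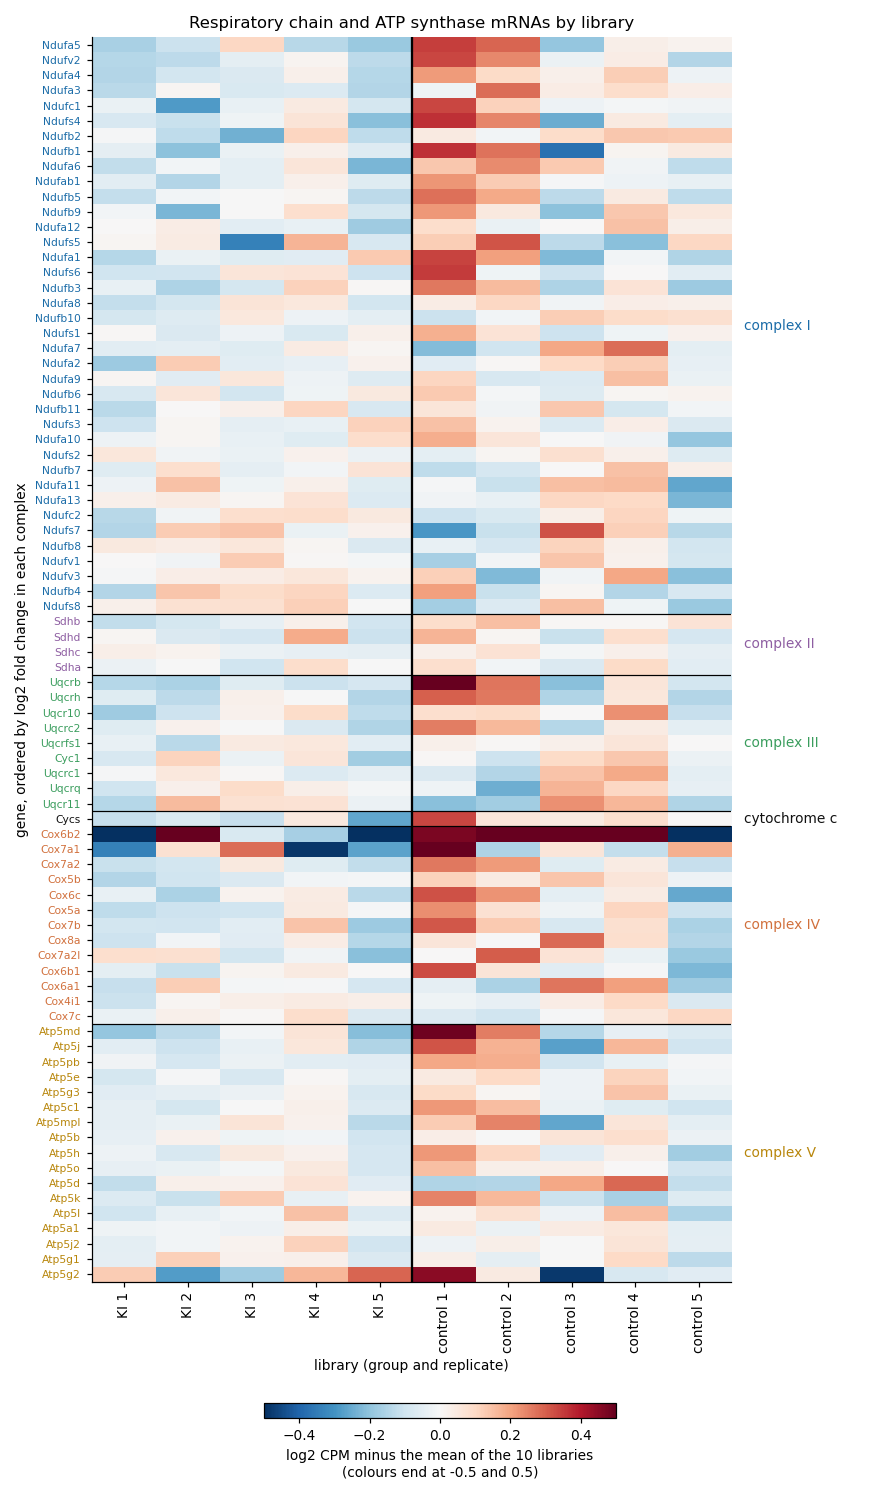
Heat map of log2 CPM minus the gene's mean over the 10 libraries, with KI libraries left of the line, control libraries right of it, and 1 gene a row. Control 1 is the reddest column, highest for 35 of 82 genes, while the KI columns stay pale, with a median coefficient of variation of 5.23% against 9.60% in control.

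The KI libraries were also more alike. The coefficient of variation was lower in KI than in control for 70 of the 82 genes (85.4%), with a median of 5.23% in KI and 9.60% in control. Over all tested genes it was lower in KI for 66.0%, and for 70.2% of the 8486 other genes in the CPM span of the well expressed members. A narrower spread in KI was therefore the common state of these libraries, and whether it was larger in the respiratory genes was not tested.

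Complex I oxidises NADH. Its 7 catalytic core subunits, which carry the flavin, the iron-sulphur clusters and the quinone site, were close to level between the groups, with 4 of 7 negative and a median of -0.0025. The 31 other tested genes with complex I names, mostly accessory subunits that surround and stabilise the core but also Ndufa4, were negative for 24 (median -0.074). Ndufv2, an iron-sulphur subunit of the NADH-oxidising arm (chr17:66078638-66101559, minus strand, GRCm38), was the core gene with the smallest p. It had 61.4, 62.0, 65.6, 68.6 and 62.0 CPM in KI 1 to 5, against 85.4, 80.1, 66.4, 69.6 and 61.3 CPM in control 1 to 5 (log2 fold change -0.18 ± 0.083 SE, unadjusted p = 0.0461). Controls 1 and 2 were high, while controls 3, 4 and 5 lay in or near the KI range. Ndufs8, an iron-sulphur subunit next to the quinone site, had the largest positive fold change of the 82, with 37.3 ± 1.23 CPM in KI and 34.4 ± 3.32 CPM in control (SD, n = 5 each; 0.11 ± 0.065 SE, unadjusted p = 0.104).

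Ndufa4 carries a complex I name but is known as a subunit of complex IV (chr6:11900292-11907497, minus strand). It had the smallest p of all 82 genes and the highest level per kb of transcript of the genes named for complex I, 134 CPM per kb. The libraries gave 73.6, 76.4, 77.5, 82.9 and 73.7 CPM in KI 1 to 5, against 94.4, 87.2, 83.0, 88.7 and 80.0 CPM in control 1 to 5. The log2 fold change was -0.17 ± 0.056 SE (unadjusted p = 0.00855, adjusted p = 0.683, edgeR). Only KI 4 reached the control range, and control 5 was the control library below it.

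Ndufa3, a small membrane subunit (chr7:3617373-3620327, plus strand), had 30.8, 34.0, 32.0, 32.2 and 30.5 CPM in KI 1 to 5, against 33.3, 40.9, 34.6, 35.9 and 34.5 CPM in control 1 to 5 (-0.17 ± 0.063 SE, unadjusted p = 0.0185). The groups overlapped through KI 2 and control 1, and control 2 stood above all others. Ndufb4, an accessory subunit, was the lowest of the tested complex I genes per kb, with 7.87 CPM per kb. It had 7.77 ± 0.660 CPM in KI and 7.52 ± 0.760 CPM in control (SD, n = 5 each). Its copy Ndufb4c, which has its own gene ID in the count table, was measured at 27.5 ± 0.678 CPM in KI and 29.1 ± 3.21 CPM in control. The 2 genes are identical over 390 aligned bases, and which of them gave the reads in that stretch was not tested. The log2 fold change was 0.047 for Ndufb4 alone and -0.054 with the copy added, each within its SE.

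**Figure D3:**
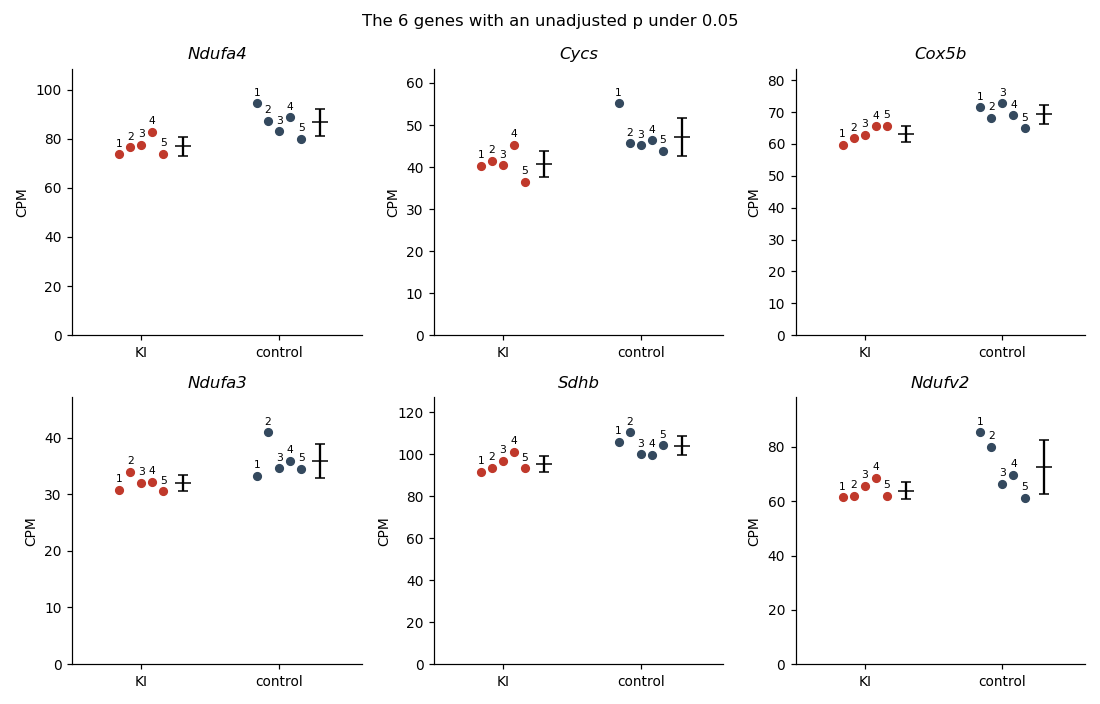
CPM of the 6 genes with an unadjusted p under 0.05, 1 point a library with its replicate number, KI left and control right, with the mean and SD beside the points. In each panel the KI mean is lower but the groups overlap, as for Ndufa4, where KI 4 (82.9 CPM) lies above control 5 (80.0 CPM).

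Complex II links the tricarboxylic acid cycle to the chain and is made from nuclear genes alone. Sdhb, its iron-sulphur subunit (chr4:140961203-140979193, plus strand), had 91.6, 93.6, 96.9, 101 and 93.3 CPM in KI 1 to 5, against 106, 111, 100.1, 99.9 and 104 CPM in control 1 to 5. The log2 fold change was -0.13 ± 0.049 SE (unadjusted p = 0.0229), and KI 4 was the KI library above the lowest controls. Sdha, the flavoprotein that oxidises succinate, averaged 189.9 ± 8.95 CPM in KI and 192 ± 10.4 CPM in control. The membrane anchors Sdhc and Sdhd had log2 fold changes of -0.027 ± 0.043 SE and -0.028 ± 0.072 SE. Sdhb stood at 87.4 CPM per kb and Sdhc at 26.6 CPM per kb, the highest and lowest level of the complex.

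Complex III passes electrons from ubiquinol to cytochrome c. Its catalytic subunits Cyc1 (cytochrome c1) and Uqcrfs1 (the Rieske iron-sulphur protein) had log2 fold changes of -0.043 ± 0.065 SE and -0.048 ± 0.048 SE. Uqcrb, a small subunit that takes part in ubiquinone binding, had the most negative value of the complex at -0.25 ± 0.12 SE (unadjusted p = 0.0562). It had 69.9, 69.1, 73.9, 71.5 and 72.7 CPM in KI 1 to 5, against 111, 92.9, 66.7, 80.3 and 72.3 CPM in control 1 to 5. The control values spanned both sides of the narrow KI range, and control 1 alone was over 100 CPM. Uqcr10 had 41.9 ± 3.30 CPM in KI and 45.5 ± 3.99 CPM in control, and Uqcrh, which helps cytochrome c to dock and was the highest gene of the complex at 219 CPM per kb, had 114 ± 5.97 CPM in KI and 125 ± 18.7 CPM in control (SD, n = 5 each).

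Cycs encodes somatic cytochrome c, the electron carrier between complexes III and IV that also triggers apoptosis when released (chr6:50562563-50566538, minus strand). It had 40.4, 41.5, 40.4, 45.2 and 36.6 CPM in KI 1 to 5, against 55.2, 45.7, 45.1, 46.4 and 43.9 CPM in control 1 to 5. The log2 fold change was -0.21 ± 0.073 SE (unadjusted p = 0.0124, adjusted p = 0.700, edgeR). KI 4 was the KI library that reached the control range. The predicted gene Gm10053 (chr19:24875686-24876631, plus strand) matches Cycs over 946 aligned bases with 1 mismatch, and 88.2% of the 100-base windows of that match are identical in both. It was measured at 39.0, 35.8, 34.3, 40.7 and 37.3 CPM in KI 1 to 5, against 53.4, 45.8, 39.1, 41.9 and 47.5 CPM in control 1 to 5, and control 1 was the highest library, as for Cycs. With this and 3 further copies added, Cycs had a log2 fold change of -0.26 ± 0.079 SE (unadjusted p = 0.00510, adjusted p = 0.588, edgeR), a setting chosen after seeing the data. Over all alternatives its adjusted p ran from 0.449 to 0.987.

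Complex IV reduces oxygen. Its catalytic subunits are made from the mitochondrial genome, and the nuclear ones counted here regulate and stabilise it. Cox5b, which binds zinc on the matrix side (chr1:36691449-36693681, plus strand), had 59.8, 61.8, 62.9, 65.5 and 65.6 CPM in KI 1 to 5, against 71.5, 68.2, 72.7, 69.0 and 64.9 CPM in control 1 to 5 (log2 fold change -0.13 ± 0.049 SE, unadjusted p = 0.0173). Control 5 alone lay within the KI range. Cox5a had 84.8 ± 4.45 CPM in KI and 92.2 ± 8.27 CPM in control, and Cox7a2 had 61.6 ± 3.01 CPM in KI and 68.1 ± 7.90 CPM in control, with unadjusted p of 0.0890 and 0.0757. Cox4i1, which stabilises the complex, had the highest level per kb of all members, 289 CPM per kb, and was level between the groups at 216 ± 8.97 CPM in KI and 216 ± 10.3 CPM in control (0.00071 ± 0.053 SE).

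Several complex IV subunits exist as a general and a tissue-specific form, and the macrophages used the general one in both groups. Per kb of transcript, Cox4i1 made up 99.97% of Cox4i RNA in KI and 99.96% in control. Cox6a1, against the heart and muscle form Cox6a2, made up 99.7% in KI and 99.9% in control, and Cox6b1, against the testis form Cox6b2, made up 99.6% and 99.4%. Cox6a2 had 5 to 12 counts a KI library and 1 to 6 a control library, too few to pass the filter. Cox8a was the only Cox8 form counted, since Cox8b and Cox8c, which are not in the deposited log2 table, had 0 counts. Among the Cox7a genes, the heart and muscle form Cox7a1 made up 0.721 ± 0.159% in KI and 0.843 ± 0.248% in control, Cox7a2 33.4 ± 2.28% and 34.5 ± 2.37%, and Cox7a2l 65.9 ± 2.37% and 64.6 ± 2.57% (SD, n = 5 each). Cox8a had 109.8 ± 5.45 CPM in KI and 119 ± 13.1 CPM in control.

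Cox7a2l (SCAF1) is a factor that joins complexes III and IV into supercomplexes (chr17:83501918-83517330, minus strand). Its pseudogene copy Gm6969 (chr12:24638669-24639010, minus strand) varied widely between single libraries. The coding sequence of Cox7a2l is known to differ between inbred mouse strains by a short in-frame deletion. In the GRCm38 annotation, Gm6969 holds 6 bases more than Cox7a2l, and the 2 sequences differ by 2 mismatches besides over 342 aligned bases. The stretch from base 181 of the coding sequence to its last codon is shown for both, from GENCODE M21, with the bases that differ in capitals.
Cox7a2l: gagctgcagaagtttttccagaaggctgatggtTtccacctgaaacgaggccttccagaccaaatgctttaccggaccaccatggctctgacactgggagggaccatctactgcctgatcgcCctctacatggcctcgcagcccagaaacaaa
Gm6969: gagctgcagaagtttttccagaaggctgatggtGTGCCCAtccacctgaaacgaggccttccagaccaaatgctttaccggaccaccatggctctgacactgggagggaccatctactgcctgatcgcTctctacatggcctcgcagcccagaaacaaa
Gm6969 had 0.00, 0.130, 58.8, 33.0 and 52.6 CPM in KI 1 to 5, against 34.0, 0.0860, 29.4, 27.6 and 28.1 CPM in control 1 to 5. It was thus at or near 0 in KI 1, KI 2 and control 2, between 27.6 and 34.0 CPM in KI 4 and the other 4 controls, and over 50 CPM in KI 3 and KI 5. Cox7a2l had 215, 214, 190.0, 200.4 and 176 CPM in KI 1 to 5, against 203, 250, 212, 198 and 178 CPM in control 1 to 5. KI 1, KI 2 and control 2, where Gm6969 was near 0, were the highest libraries of their group, and KI 3 and KI 5, where it was over 50 CPM, were the lowest of KI. Control 3 and control 5 had similar Gm6969 values, 29.4 and 28.1 CPM, but 212 and 178 CPM of Cox7a2l. The sum of both genes was 228 ± 14.3 CPM in KI and 232 ± 16.9 CPM in control (SD, n = 5 each), and its log2 fold change was -0.027 ± 0.064 SE, against -0.067 ± 0.087 SE for Cox7a2l alone. The Cox7a2l alleles of the mice were not tested, since the files hold no reads.

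Ndufs5, an accessory subunit of complex I, also has a copy seen in single libraries. Its pseudogene copy BC002163 differs from it by 2 mismatches over 319 aligned bases (chr16:42955631-42955949, plus strand). BC002163 had 0.00, 0.00, 9.34, 0.00 and 0.00 CPM in KI 1 to 5, against 14.0, 0.00, 0.00, 9.53 and 0.00 CPM in control 1 to 5. Ndufs5 had 26.2, 26.8, 20.6, 29.3 and 24.6 CPM in KI 1 to 5, against 28.4, 32.4, 23.8, 22.5 and 27.9 CPM in control 1 to 5. KI 3 and control 4, both with BC002163 counts, were the lowest of their group for Ndufs5, while control 1, with the most, was not. Unlike for Cox7a2l, the sum did not narrow the control spread: it was 27.4 ± 2.21 CPM in KI and 31.7 ± 6.92 CPM in control, against 25.5 ± 3.20 CPM in KI and 27.0 ± 3.94 CPM in control for Ndufs5 alone. The log2 fold change was -0.22 ± 0.13 SE for the sum and -0.084 ± 0.11 SE for Ndufs5 alone.

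**Figure D4:**
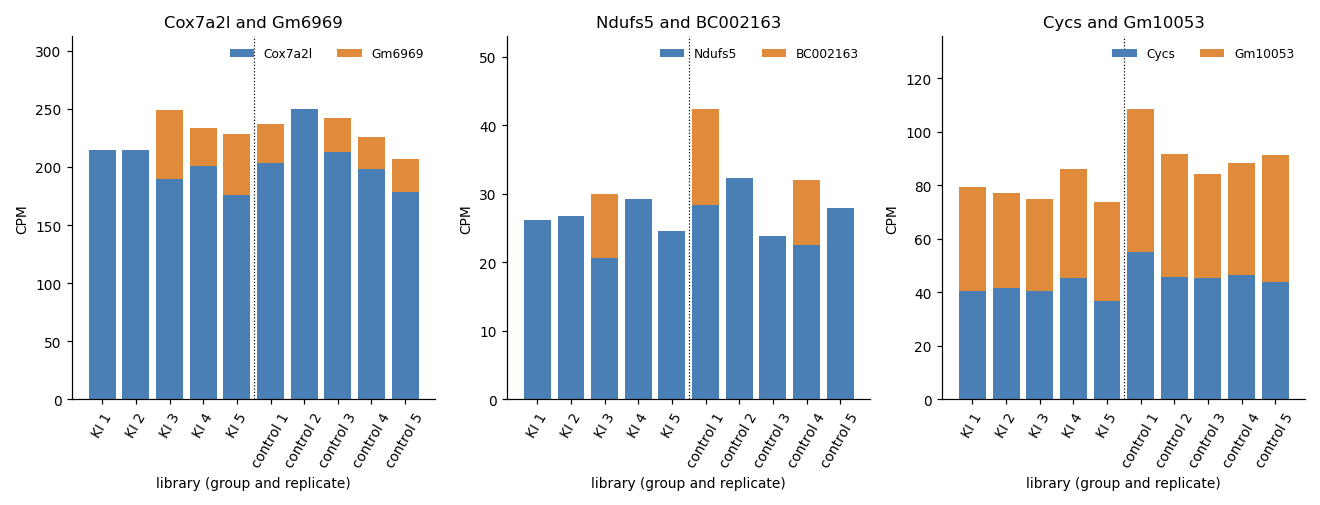
Stacked CPM of Cox7a2l, Ndufs5 and Cycs (blue) with 1 close copy each (orange) in every library, KI left of the dotted line and control right of it. Gm6969 ranges from 0.00 to 58.8 CPM within KI alone and BC002163 appears in 3 of 10 libraries, while Gm10053 is present in all 10.

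Shared sequence was common among the respiratory genes, which limits how exactly their reads can be placed. At 95% identity over 100 bases or more, 40 of the 85 matched at least 1 of 91 other annotated genes, and 48 of these were pseudogenes. Of the 85, 32 overlap a gene on the opposite strand, and members such as Atp5a1 and Cox4i1 are in both counts. Whether the counting used strand is not given. With 48 close copies added to the counts of 26 members, 0 members were called and 69 of 82 log2 fold changes were negative, against 66 without.

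Complex V makes ATP. The 5 tested subunits of its catalytic head (F1) were all negative (median -0.061), as were the 4 of the peripheral stalk (-0.076) and the 5 small membrane subunits (-0.036), while 1 of the 3 c-subunit genes was. Atp5b, the catalytic beta subunit, had the highest level per kb of the complex, 254 CPM per kb, with 477 ± 14.3 CPM in KI and 497 ± 15.8 CPM in control (SD, n = 5 each; -0.061 ± 0.047 SE). Atp5j2, a membrane subunit, stood at 73.3 CPM per kb, the lowest of the complex V genes whose principal transcripts are alike in length, and was level at 69.8 ± 3.92 CPM in KI and 70.2 ± 2.15 CPM in control. In edgeR's quasi-likelihood test, the smallest unadjusted p of the complex was 0.0845, for the epsilon subunit Atp5e (-0.088 ± 0.047 SE). The next were Atp5md (DAPIT, at the interface of ATP synthase dimers) with -0.21 ± 0.11 SE and Atp5pb (stalk subunit b) with -0.10 ± 0.063 SE.

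Atp5md had 48.6, 50.7, 55.0, 58.0 and 47.9 CPM in KI 1 to 5, against 77.8, 66.3, 50.2, 53.9 and 53.0 CPM in control 1 to 5. Controls 1 and 2 again stood above all KI libraries, and the other 3 controls lay inside the KI range. The 3 genes for the proton-carrying c subunit encode the same mature protein with different import sequences. Atp5g3 gave 49.1 ± 1.01% of their RNA per kb in KI and 50.9 ± 1.54% in control, Atp5g1 32.9 ± 1.95% and 31.9 ± 1.68%, and Atp5g2 18.0 ± 2.74% and 17.2 ± 3.11% (SD, n = 5 each). These shares and the order of Atp5g1 and Atp5g2 depend on the transcript chosen: over all 10 libraries the levels were 88.9, 48.5 and 137 CPM per kb for Atp5g1, Atp5g2 and Atp5g3 with the shortest principal transcript, and 11.2, 29.3 and 136 CPM per kb with the longest. Atp5g2 is uncertain, since the pseudogene Gm10175 is identical to it over 441 aligned bases and was measured higher, at 79.7 ± 6.90 CPM in KI and 82.0 ± 9.02 CPM in control.

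Low-GC genes and high-GC genes of the group differed. Of the 20 members of lowest transcript GC content (40.8% to 48.4%), 19 had a negative log2 fold change (median -0.11), against 8 of the 20 of highest GC content (55.7% to 61.1%; median 0.010). Among all tested genes, 2773 of 5222 at or under 48.4% GC were negative (median -0.0078). At or above 55.7% GC, 1095 of 2425 were (median 0.013). Across the 82 genes, Spearman's rho between GC content and log2 fold change was 0.43, against 0.026 across 12394 tested genes with a GC value. These points share their libraries, so no p is given. Within single libraries, rho between GC content and the deviation from the mean was between 0.051 and 0.46 in the 5 KI libraries, and was -0.48, -0.53, 0.53, 0.30 and -0.14 in control 1 to 5. The slopes of control 1 and control 2 ran against that of control 3. With a trend on GC content taken out of each library, 19 of the 20 low-GC and 12 of the 20 high-GC members were negative and rho was 0.32. Without the 3 libraries rich in stromal RNA, the counts were 17 and 7.

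**Figure D5:**
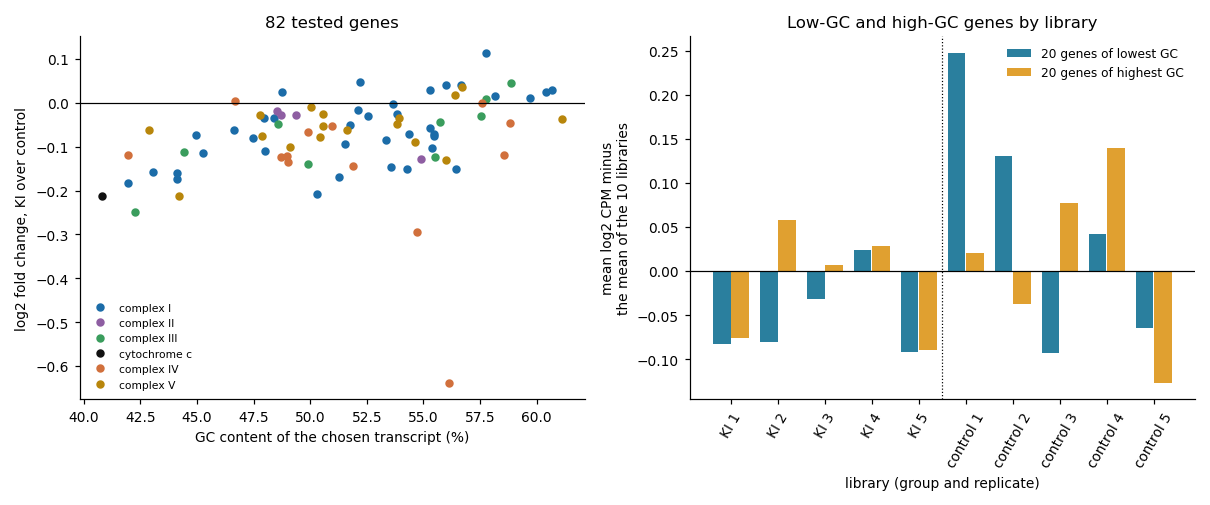
Left, log2 fold change (KI over control) against transcript GC content for the 82 genes, coloured by complex. Right, mean deviation in log2 CPM of the 20 lowest-GC (blue) and 20 highest-GC (orange) genes in each library, KI left of the dotted line. Low-GC genes stand highest in control 1 (0.25) and control 2 (0.13).

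The other genes of the pathway lay on both sides of 0, and edgeR called none. The 13 mRNAs of the mitochondrial genome encode the remaining subunits of complexes I, III, IV and V. Their log2 fold change was positive in 12 cases (median 0.12). An unadjusted p under 0.05 (edgeR) was reached by 6, where 6.21% of all tested genes reached that level. These 6 were mt-Nd3, mt-Nd4, mt-Nd5, mt-Atp6 and mt-Atp8, all higher in KI, and mt-Nd6, which was lower. The smallest p was that of mt-Nd5, a proton-pumping subunit of complex I, with 3671 ± 123 CPM in KI and 3132 ± 264 CPM in control (0.23 ± 0.064 SE, adjusted p = 0.533, edgeR), and its groups did not overlap. The single negative gene was mt-Nd6, at 6.31 ± 0.767 CPM in KI and 9.04 ± 1.87 CPM in control (-0.52 ± 0.15 SE, unadjusted p = 0.00368, edgeR). Summed over the 13, the mitochondrial mRNAs took 58079 to 64814 CPM in KI and 50019 to 61292 CPM in control, and the groups overlapped. Nuclear and mitochondrial genes of the same complexes thus had medians of opposite sign, and the difference between the lists was not tested.

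Of 51 assembly factors, 50 were in the table and 49 were tested. Their log2 fold changes were negative for 35 (median -0.044). An unadjusted p under 0.05 (edgeR) was reached by 4, where 6.21% of all tested genes reached that level. Of these 4, Cox17, Cox18 and Sco1 were lower in KI and Cox15 was higher. Cox17, a copper chaperone for complex IV, had the smallest p, with 28.1 ± 1.70 CPM in KI and 32.2 ± 1.01 CPM in control (-0.20 ± 0.055 SE, adjusted p = 0.530, edgeR). Of 13 transcriptional regulators, 12 were tested and 10 were positive (median 0.020) and none had an unadjusted p under 0.05, with Yy1 at 89.4 ± 2.59 CPM in KI and 85.9 ± 3.35 CPM in control (0.058 ± 0.046 SE). Nrf1 was level at 16.8 ± 1.04 CPM in KI and 16.7 ± 1.07 CPM in control, and Ppargc1a, a coactivator of mitochondrial biogenesis, had 10 counts over all libraries and was not tested. Of 13 tricarboxylic acid cycle genes, 10 were negative (median -0.033) and 1 had an unadjusted p under 0.05. That gene, Suclg1, a subunit of succinyl-CoA ligase, had 46.7 ± 1.49 CPM in KI and 52.6 ± 4.99 CPM in control (-0.18 ± 0.064 SE, adjusted p = 0.700, edgeR).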

How the data were processed

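Per the labels, libraries were poly(A)+ and strand-specific, read in pairs of 100 bp, with a plan of 20 M reads each. The authors deposited estimated counts per Ensembl gene; Salmon 1.6.0 and DESeq2 1.34.0 are among the tools in the submitters' processing notes, while the annotation and any use of strand are not given in those notes or the labels. The second deposited table holds log2 values (regularized log); it gave the symbols and 1 alternative.

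Counts were rounded. edgeR 4.0.16 (R 4.3.3; TMM, filterByExpr at a minimum count of 10 and a total of 15, robust quasi-likelihood F-test, genotype only) tested 12411 genes over the 10 libraries, with Benjamini-Hochberg adjustment and a threshold of 0.05. The SE is the size of the log2 fold change over the square root of F. Alternatives used DESeq2 1.42.0 and limma 3.58.1. Intervals and p-values rest on depth and on 5 libraries a group.

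Coordinates, transcript length and GC content are from GENCODE M21 (GRCm38) by gene ID. CPM per kb uses the shortest principal transcript with the best support, chosen after seeing the lengths. Promoters are from RefSeq (GRCm38.p6).

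The members and lists were chosen with earlier results of these data known. Genes were named by smallest p, highest and lowest level per kb and isoform pairs, by complex. Ndufs8, the copies and the genes with them were added after their values were seen, as were Sdha, Sdhd, Uqcrfs1, mt-Nd6, Nrf1 and Ppargc1a.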

Additional observations from a re-analysis of the deposited data

Results flagged for a closer look

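Among 76 sets of 5 libraries examined, 5 held a library whose gap to its nearest neighbour was over 0.710 of the range of its group, and chance alone gives about 1 in 20 such sets. Cox4i1 was lowest in KI 1, at 199.9 CPM against 217 to 222 CPM in the other KI libraries (a gap of 0.791 of the range). Cycs was highest in control 1, at 55.2 CPM against 43.9 to 46.4 CPM in the other controls (0.779). Cox7a1 was also highest in control 1, at 1.47 CPM against 0.774 to 0.975 CPM (0.711). Summed over complex II, KI 4 was highest at 501 CPM against 453 to 466 CPM in the other KI libraries (0.731). Summed over complex IV, control 5 was lowest at 1126 CPM against 1285 to 1344 CPM in the other controls (0.730).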

How the results depend on the processing

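No member was called under any of the 22 alternatives. Over all tested genes, the number called was 10 as reported, 45 with DESeq2, 38 without the 3 stromal-rich libraries, and 6 to 23 when leaving out each library in turn (23 without KI 4). The members with a positive log2 fold change numbered 16, 25 without the 3 stromal-rich libraries, and 9 to 25 leaving out each library (25 without control 4, 9 without control 5). The sample titles give replicate numbers but name no pairs, and whether the numbers pair mice is not known. The same-numbered deviations correlated at -0.20, 0.027, 0.039, 0.51 and 0.25 for replicates 1 to 5. KI 4 and KI 5 matched the same-numbered control best, while KI 1, KI 2 and KI 3 matched a control of another number. With the replicate block, 12 genes and 0 members were called and 16 members were positive.

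Of 29 named tested genes, 21 kept their sign throughout; Cox6b2 and Cox7a1 gave no value with the 1 CPM filter. Near 0, Cox4i1 turned to -0.0032 without the filter, -0.0012 with the 1 CPM filter and -0.018 with the GC trend removed, and Atp5j2 to 0.0086 with limma on the deposited log2 values, 0.015 with the stromal covariate and 0.0029 with the GC trend removed. Cox6b1 turned to 0.032 without the stromal-rich libraries, and with copies summed Atp5g2 turned to -0.025 and Ndufb4 to -0.054. Leaving out each library gave -0.011 to 0.049 for Atp5g1, -0.062 to 0.17 for Atp5g2, -0.042 to 0.014 for Atp5j2, -0.017 to 0.028 for Cox4i1, -0.092 to 0.020 for Cox6a1, -0.11 to 0.034 for Cox6b1 and -0.12 to 0.0073 for Cox7a2l. The causes were not tested.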
